A study of Mus musculus with 22 samples.

Results

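The genes described here code for proteins of the cornified envelope and for the enzymes that crosslink them. They were chosen by name as envelope genes, namely Ivl, Cnfn, Crct1, Cysrt1, Evpl, Ppl, Tgm1 and Tgm3, which are 8 of the 17541 genes in the deposited counts. The study profiled single cells of esophageal epithelium peeled from C57BL6 mice by inDrop, a droplet method in which each captured transcript carries a cell barcode and a unique molecular identifier (UMI). The 6 control mice were untreated, 3 of them aged 3 to 4 months (mice 1, 2 and 6) and 3 aged 18 to 20 months (mice 3, 4 and 5). EoE-like inflammation had been induced in 4 mice, by MC903 (a vitamin D analog) and ovalbumin (OVA) on the scraped ears for 12 days and by OVA by gavage and in the drinking water (15 g/L) from day 15 to day 32. Of these, mice 9 and 10 were 6 to 8 weeks old and mice 11 and 12 were 19 to 20 months old. ESCC had been induced in 3 mice of 8 to 10 months (8M, 17F and 17M) by the carcinogen 4NQO in the drinking water at 100 µg/mL for 16 weeks, followed by 8 weeks without it. The ESCC mice share no age class with the controls, so age and ESCC cannot be told apart.

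The cornified envelope is a layer of crosslinked protein that replaces the plasma membrane of stratified squamous cells late in differentiation. Involucrin (Ivl) and the plakins envoplakin (Evpl) and periplakin (Ppl) form an early scaffold beneath the membrane and at desmosomes, cornifelin (Cnfn) and the small cysteine-rich proteins are added to it, and transglutaminases (Tgm1 at the membrane, Tgm3 in the cytosol) join glutamine to lysine side chains. In esophagus the cells that carry it lie near the lumen, above basal cells that express the keratin Krt5, and the differentiation gene Krtdap marks the cells that have left the basal layer.

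Each condition was represented by 1500 deposited cells. Cells were kept within 250 to 3500 genes and 100 to 9500 UMIs, the limits stated by the study, and 30 of those cells were left out as non-epithelial by their marker UMIs. This kept 1493 control cells with 1744511 UMIs, 1472 ESCC cells with 5080711 UMIs, and 143 EoE cells with 97975 UMIs. EoE mice therefore gave 11 to 57 cells each, and EoE results of the members are also given over all deposited cells. The median cell used had 519 UMIs in EoE, 990 in controls and 3109 in ESCC, and the median of all deposited EoE cells was 138. A count of 3 UMIs over a group, the least taken as above 0, corresponds to 30.6 CPM (UMIs of a gene per 1000000 UMIs of a mouse or group) in EoE, 1.72 CPM in controls and 0.590 CPM in ESCC, and this floor covers counting error only. Up to 52 barcodes were shared by the 2 libraries of a mouse, and at most 4 by libraries of different mice. Merging the cells of a mouse that share a barcode, an alternative chosen after seeing the data, changed no count of members called in EoE or ESCC. Cells with more Krtdap than Krt5 UMIs (Krtdap-side cells) made up 20% to 40.2% of the cells used of control mice, 54.4% to 72.7% in EoE and 7.03% to 16.3% in ESCC. Control mice 2 and 3, with 20.9% and 20%, stood apart from the other 4 controls, which had at least 38.9%.

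In the GENCODE M21 annotation of the GRCm38 assembly Ivl (ENSMUSG00000049128) is at chr3:92570902-92573735 and Crct1 (ENSMUSG00000027913) at chr3:93014205-93015687, both on the minus strand. Cnfn (ENSMUSG00000063651) is at chr7:25367620-25369724, Cysrt1 (ENSMUSG00000036731) at chr2:25238818-25242452, Evpl (ENSMUSG00000034282) at chr11:116220559-116238077 and Ppl (ENSMUSG00000039457) at chr16:5086291-5132421, all on the minus strand. Tgm1 (ENSMUSG00000022218) is at chr14:55700009-55713926 on the minus strand and Tgm3 (ENSMUSG00000027401) at chr2:130012349-130050399 on the plus strand. No sequence of 31 bases in the last 300 bases of a member's longest transcript occurred in the transcripts of another gene. Cysrt1 overlaps Rnf208 and Tgm1 overlaps Gm49067, each on the opposite strand, and the use of strand in counting is not given in the sources used here.

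RefSeq promoter windows of the same assembly (GRCm38.p6, 250 bases before to 50 after a start site) were held for 5 of the 8 members. The 250 bases before the start site are printed for Ivl, Cnfn, Cysrt1 and Tgm3. Ivl was chosen as the member that was nearly absent, and Cnfn as the member with the largest rise in EoE. Cysrt1 was chosen as the member whose AP-1 letters overlap a CACCC, and Tgm3 as the crosslinker with a TATA box. The printed bases run 5′ to 3′ on the strand of the gene, and capitals mark the letters of any motif searched.
Ivl, chr3:92573736-92573985, minus strand: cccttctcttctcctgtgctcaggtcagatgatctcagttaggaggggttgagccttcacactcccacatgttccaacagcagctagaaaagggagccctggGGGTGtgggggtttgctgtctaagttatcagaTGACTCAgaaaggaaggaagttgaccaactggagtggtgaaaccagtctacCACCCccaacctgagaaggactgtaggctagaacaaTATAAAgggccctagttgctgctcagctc
Cnfn, chr7:25369725-25369974, minus strand: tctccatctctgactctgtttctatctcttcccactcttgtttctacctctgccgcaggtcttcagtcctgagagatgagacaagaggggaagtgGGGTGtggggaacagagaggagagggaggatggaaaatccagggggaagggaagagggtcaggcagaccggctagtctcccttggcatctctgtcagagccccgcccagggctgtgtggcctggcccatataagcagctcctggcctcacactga
Cysrt1, chr2:25239898-25240147, minus strand: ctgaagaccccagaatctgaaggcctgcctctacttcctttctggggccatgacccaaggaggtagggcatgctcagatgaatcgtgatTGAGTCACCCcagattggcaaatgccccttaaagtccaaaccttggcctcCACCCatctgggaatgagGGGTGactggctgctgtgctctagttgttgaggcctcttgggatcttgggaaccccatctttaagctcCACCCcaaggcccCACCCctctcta
Tgm3, chr2:130012090-130012339, plus strand: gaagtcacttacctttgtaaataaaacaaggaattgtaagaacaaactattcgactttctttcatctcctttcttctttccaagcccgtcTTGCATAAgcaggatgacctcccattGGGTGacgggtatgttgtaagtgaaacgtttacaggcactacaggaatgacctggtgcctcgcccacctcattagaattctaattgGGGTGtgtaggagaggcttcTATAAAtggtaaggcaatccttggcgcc

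Each of 5 motifs was searched on both strands over the whole windows. The AP-1 letters, TGANTCA, occurred in Ivl, 116 bases before the start site, and in Cysrt1, 161 bases before it, where their last 2 bases are also the first 2 of a CACCC. They occurred in 7.81% of all 32851 windows. The TATA box, TATAAA, stood 29 bases before the start site of Ivl and 28 before that of Tgm3, against 13.6% of all windows with it anywhere. The letters of KLF and Sp factors, CACCC, were in each of the members' 6 windows, 6 times in that of Cysrt1, but 57.5% of all windows hold them. The C/EBP letters, TTGCNNAA, stood in the Tgm3 window and in 1 of the 2 Tgm1 windows, and in 10.8% of all windows. The Grainyhead-like letters, AACCGGTT, were in none of the members' windows and in 0.146% of all windows. These letters are descriptions of the sequence, and no binding was measured.

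Ivl was close to absent. Over all 4500 deposited cells it had 5 UMIs, 1 each in control mice 4 and 5, 2 in ESCC mouse 17F, 1 in ESCC mouse 17M and 0 in EoE. It was below the filter on low counts and was not tested, and no fold is given, since its groups were at or under 3 UMIs. At this depth its level was not detectable in EoE, where the 0 UMIs allow up to 10.1 CPM over all deposited cells and up to 30.6 CPM over the 143 cells used. The remaining 7 members were tested.

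In control mice the 7 tested members had higher mean levels at the Krtdap end of the axis from Krt5 to Krtdap, given here as a description with no test. When the cells of each control mouse were ranked on this axis and divided into eighths, Cnfn went from a mean of 35.6 CPM ± 53.1 (SD, n = 6) in the first eighth to 5450.5 CPM ± 3145 in the last. Crct1, a small cysteine-rich protein, went from 3.8 ± 9.31 to 1782 ± 1285 CPM, and Cysrt1, another cysteine-rich protein, from 36.9 ± 40.9 to 1139 ± 580.4 CPM. Through the fifth eighth the mean of each of these 3 genes was at most 218.4 CPM.

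The plakins and Tgm3 had higher means in the first eighth than the other tested members. Evpl went from 100.4 ± 70.4 to 1219 ± 284.9 CPM and Ppl from 127.8 ± 64.7 to 1714 ± 655.4 CPM, while Tgm3 went from 305.8 ± 133.6 to 4775 ± 1173 CPM (SD, n = 6). Tgm1 was the flattest member, with 58.7 ± 66.7 CPM in the first eighth, 276.2 ± 120.2 CPM in the seventh and 253.2 ± 95.9 CPM in the last. Its mean in the last eighth lay within the spread of the seventh.

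**Figure D1:**
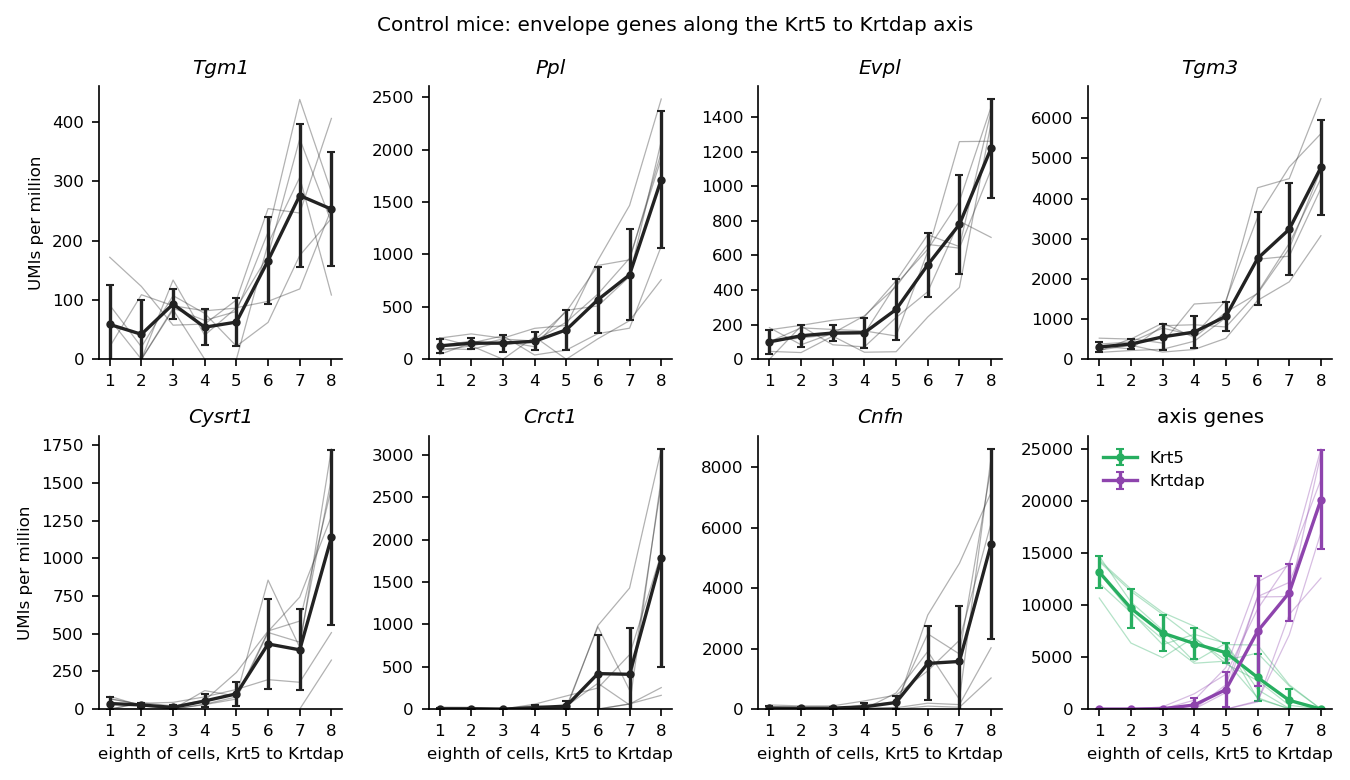
Level of each member (CPM, y axis) in 8 equal groups of control cells ranked from Krt5 to Krtdap (x axis), with Krt5 and Krtdap themselves, which set the ranking, in the last panel. Thin lines are the 6 mice, points and bars the mean and SD with bars cut at 0, and the scale differs between panels. Crct1 has a mean of at most 16.5 over the first 4 groups, while Tgm3 starts at 305.8.

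The order in which the members came on was read from the onset, the percentage of a mouse's ranked cells passed when 25% of the gene's summed level is reached, which is 25 for a gene with no change along the axis. Onsets in controls were 46.8% ± 18.5 for Tgm1, 58.6% ± 11.9 for Ppl, 62.8% ± 7.81 for Evpl and 64.9% ± 4.42 for Tgm3 (SD, n = 6). They were 69.6% ± 6.28 for Cysrt1 and 81.6% ± 10.8 for Crct1 (n = 5, as mouse 3 had fewer than 10 UMIs of each), and 83.8% ± 9.64 for Cnfn (n = 6). Of neighbors in this order, Tgm1 and Ppl, Ppl and Evpl, Evpl and Tgm3, Tgm3 and Cysrt1, and Crct1 and Cnfn each changed places in at least 1 mouse. Crct1 came later than Cysrt1 in 5 of 5 mice. The values and part of the order depended on how the onset was read. The mean for Ppl was 30.7% when read at 10% of the summed level and 81.1% when read at 50%. With the onset set where a gene first reached 50% of its highest eighth, Ppl (81.2%) followed Evpl (71.6%), Tgm3 (71.7%) and Cysrt1 (80.4%).

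Cnfn came on later than Tgm1 by 37.0 ± 18.3 percentage points (SD of the difference, n = 6), than Ppl by 25.2 ± 18.6, than Evpl by 21 ± 9.59 and than Tgm3 by 18.9 ± 8.61, in 6 of 6 mice each. Each of these 4 differences had p = 0.03125 in a two-sided exact sign-flip permutation test, the smallest that 6 mice allow, and an adjusted p of 0.101 over the 21 pairs. For pairs measured in 5 mice the smallest possible p is 0.0625, and no pair could have reached the 0.05 threshold after adjustment, since the smallest possible adjusted p was 0.0625. The order was the same in every mouse for 12 of the 21 pairs. Onsets depend on how a gene's UMIs fall in few cells, and Tgm1 had only 10 to 62 UMIs in a control mouse.

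The same contrast stood in the share of control cells with at least 1 UMI, after each cell was thinned to 500 UMIs (25 Krt5-side and 7 Krtdap-side cells with fewer were left out). Cnfn was found in 3.35% of 896 Krt5-side cells (95% exact binomial interval 2.27% to 4.75%) and in 40.6% of 530 Krtdap-side cells (36.4% to 44.9%). Crct1 was found in 0.335% (0.0691% to 0.975%) and 21.3% (17.9% to 25.1%), and Tgm3 in 20.9% (18.3% to 23.7%) and 71.5% (67.5% to 75.3%). Tgm1 was found in 3.57% (2.46% to 5.00%) and 10.0% (7.58% to 12.9%). Without thinning the Krtdap-side shares were 50.1% for Cnfn, 29.6% for Crct1, 86.0% for Tgm3 and 25.5% for Tgm1, at median depths of 951 UMIs on the Krt5 side and 1172 on the Krtdap side. The intervals cover counting error over cells, not differences between mice. In the 7 control cells called non-epithelial, at a median of 920 UMIs, 0 had a UMI of any member, but so few cells allow a share of up to 41% (exact binomial). Of 22 such ESCC cells, at a median of 2068 UMIs, 0 had a UMI of Tgm3 (up to 15.4%) and 1 each had one of Cnfn, Evpl and Ppl. The part of free RNA in the Krt5-side UMIs was not tested further.

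None of the 8 members had a UMI in 61.4% of the thinned Krt5-side cells and in 9.43% of the Krtdap-side cells. Krt5-side cells held UMIs of at most 3 members and Krtdap-side cells of at most 7, which 4 of 530 cells did.

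**Figure D2:**
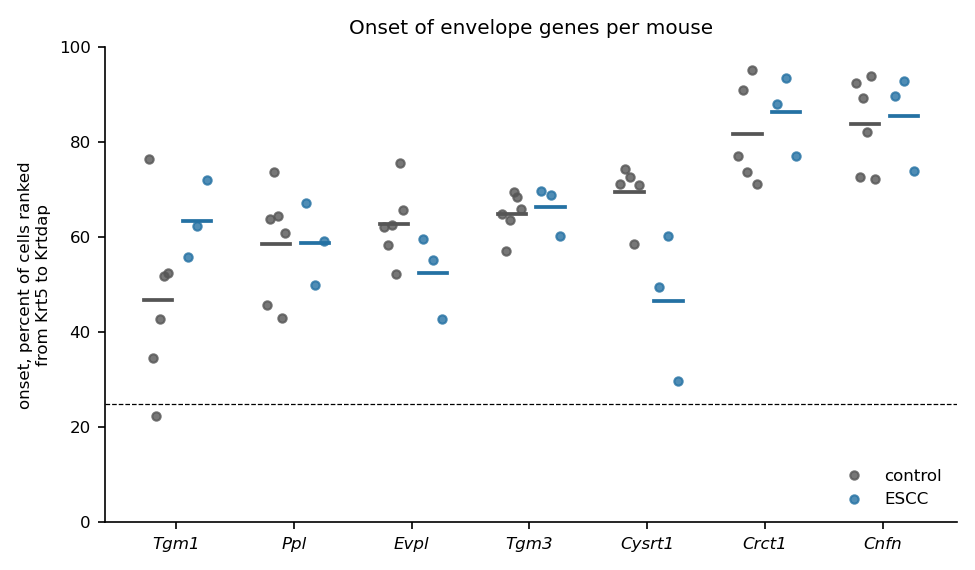
Onset of each member per mouse (points, 1 per mouse with at least 10 UMIs of the gene), as the percentage of cells ranked from Krt5 to Krtdap, in control (gray) and ESCC (blue), with the mean of each group as a line. The dashed line at 25 is a gene spread evenly along the axis, and the control means run from 46.8 (Tgm1) to 83.8 (Cnfn).

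For each member the other genes with the most similar profile over the 8 eighths of 6 control mice (48 points that share libraries, cells and depth) were named by Pearson's r of log2(CPM + 50), as a description. Cnfn was most like Serpinb12 (r = 0.955) and Crabp2 (r = 0.954), a retinoic acid binding protein, and Crct1 like Serpinb3a (r = 0.957) and Crabp2 (r = 0.95). Cysrt1 was most like Ly6g6c (r = 0.919) and the connexin Gjb2 (r = 0.917). The reads of Serpinb3a may be shared with its copy Serpinb3c.

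Among the plakins, Evpl was most like Sbsn (r = 0.934), whose transcript shares sequence with Tmem147os, and the suprabasal keratin Krt4 (r = 0.907), while Ppl was most like Psapl1 (r = 0.917) and S100a16 (r = 0.908). Tgm3 was most like the suprabasal keratin Krt13 (r = 0.937) and Gsta4 (r = 0.923). For Tgm1 the closest genes were Dbi (r = 0.809) and Ahnak (r = 0.803), less alike than for any other tested member.

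In EoE, Cnfn and Ppl were higher than in controls and Tgm1 was lower, and 4 members did not pass the test. This comparison asks how the envelope genes differ between MC903/OVA-treated and untreated epithelium. Of the 7 members tested, 2 were higher, where 9.48% of 5866 genes tested were, and 1 was lower, where 25% of genes were. The median log2 fold change was 0.30 over the 7 members and -0.75 over all genes tested. That center of all genes moved with the scaling, to -0.97 with RLE factors and -0.60 with library totals, and the same 3 members were called with each. In sums over a mouse, fewer cells of a type and less RNA per cell cannot be told apart.

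Cnfn was at 8036, 6705, 10889 and 3786 CPM in EoE mice 9, 10, 11 and 12, and between 189.1 and 2462 CPM (median 1663) in the 6 controls. Each EoE mouse lay above each control. The log2 fold change was 2.08 ± 0.43 (SE, 4.24-fold higher, adjusted p = 0.000393, edgeR quasi-likelihood test with Benjamini-Hochberg adjustment), which is 2.83 above the median gene. Over all deposited EoE cells Cnfn was at 1251 to 3903 CPM, overlapping the controls, and the difference fell to 0.99 (adjusted p = 0.0756, edgeR), so this call rests on the limits set on cells.

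Ppl was at 2699, 2911, 2242 and 1948 CPM in EoE mice 9 to 12, against 252.2 to 928.9 CPM (median 638.8) in controls. The groups did not overlap. The log2 fold change was 1.88 ± 0.32 (SE, 3.69-fold higher, adjusted p = 3.27e-05, edgeR). Over all deposited cells it was 1.00 (adjusted p = 0.0182, edgeR), with EoE mice at 617.2 to 1766 CPM, 2 of them within the control range.

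Tgm1, the membrane-bound crosslinker, had 2 UMIs in EoE mouse 9, 1 in mouse 10 and 0 in mice 11 and 12. In CPM these were 62.8, 23.9, 0 and 0, against 90.1 to 188.1 CPM (median 133.1) in controls, with no overlap. The pooled EoE level was 0.213 of that in controls (95% counting interval 0.0436 to 0.629, 3 UMIs), and the edgeR test gave adjusted p = 0.00614. Over all deposited cells the 5 Tgm1 UMIs gave a ratio of 0.117 (0.0377 to 0.277), with 12.8 to 23.3 CPM in the 4 mice. Without EoE mouse 10 the log2 fold change was -2.22 and the call was lost (adjusted p = 0.0546, edgeR). Tgm1 entered the test through control and ESCC mice, since only 1 EoE mouse reached the 35.5 CPM of the filter on low counts. Without the filter Tgm1 was also called lower.

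The other members showed overlapping groups. Evpl was at 659.2, 954.4, 480.4 and 445.4 CPM in EoE mice 9 to 12 and 338.7 to 588.8 CPM in controls (log2 fold change 0.36 ± 0.29, SE, adjusted p = 0.349, edgeR). Crct1 was at 753.3, 739.7, 160.1 and 389.7 CPM against 36.0 to 894.3 CPM (0.30 ± 0.55, adjusted p = 0.694), and Cysrt1 at 408.1, 381.8, 1441 and 334.0 CPM against 54.0 to 479.4 CPM (0.24 ± 0.43, adjusted p = 0.695). Tgm3 was at 3045, 1980.5, 640.5 and 946.4 CPM against 1119 to 2872 CPM (-0.25 ± 0.34, adjusted p = 0.595). Over all deposited cells Tgm3 passed the test as lower (-1.14, adjusted p = 0.0115, edgeR), and Crct1, Cysrt1 and Evpl had negative values that did not pass.

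**Figure D3:**
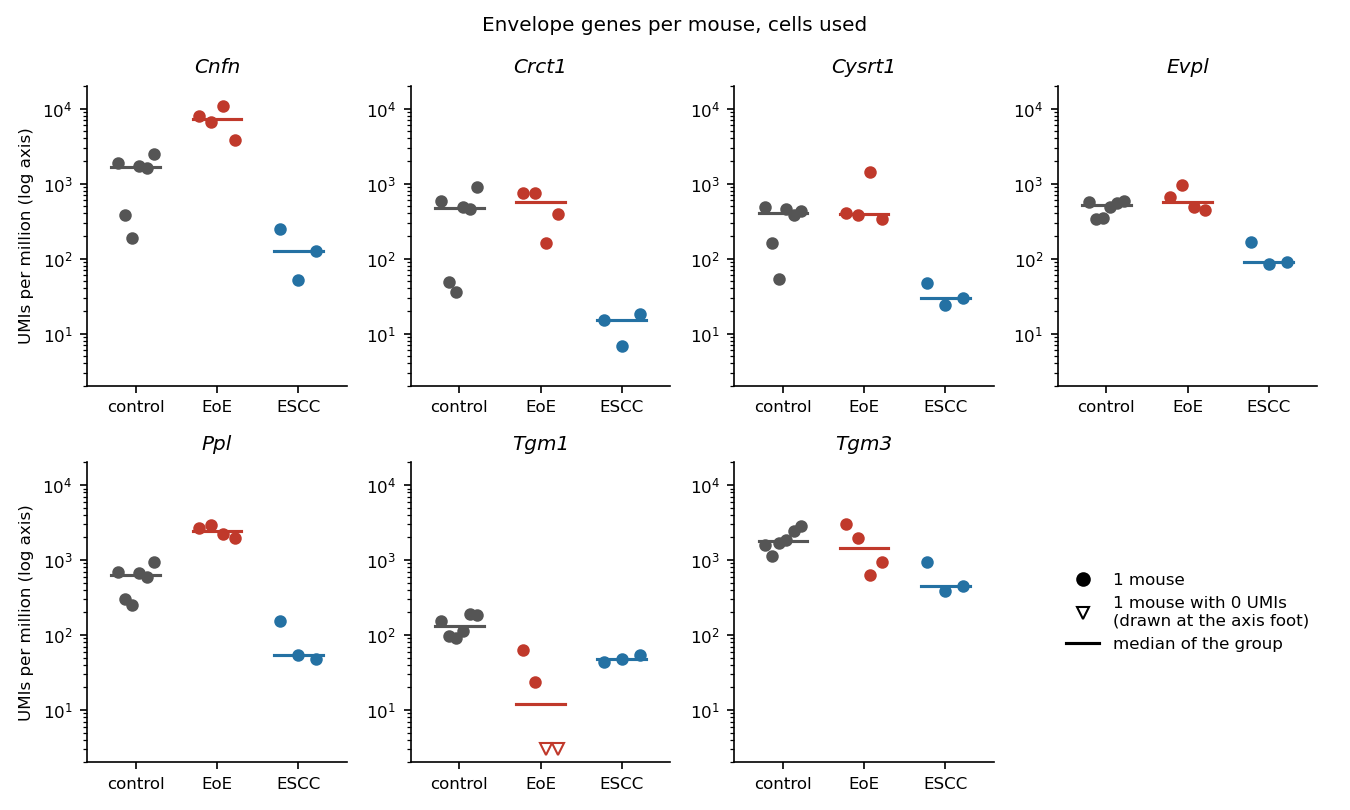
Level of the 7 tested members (CPM, log axis) in each mouse by condition, over the cells used. Points are mice, lines the group medians, and open triangles at the foot of the axis mark 2 EoE mice with 0 Tgm1 UMIs. Cnfn and Ppl in EoE lie above each control mouse, and the 3 ESCC mice lie below each control mouse in 6 of the 7 panels, with Cnfn (1 ESCC mouse above control mouse 3) as the exception. The share of all genes whose groups lie apart in this way was not counted, so these separations are descriptions only.

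The plakins, which are partners in the same scaffold, stood at unequal levels in EoE. In single mice there were 4.10, 3.05, 4.67 and 4.38 Ppl UMIs per Evpl UMI in EoE mice 9 to 12, from 86 and 21, 122 and 40, 14 and 3, and 35 and 8 UMIs. Controls had 0.737 to 1.58 and ESCC mice 0.936, 0.639 and 0.543. The mean log2 ratio was 1.93 ± 0.22 in EoE (SD, n = 4) and 0.16 ± 0.40 in controls (n = 6), a difference of 1.77 with no overlap. It was 1.6 over all deposited cells and 1.79 in Krtdap-side cells. This ratio was chosen after the values of both genes were seen, so it is given as a description with no p-value. ESCC differed from control by -0.70, within the range of single controls for 8M only.

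**Figure D4:**
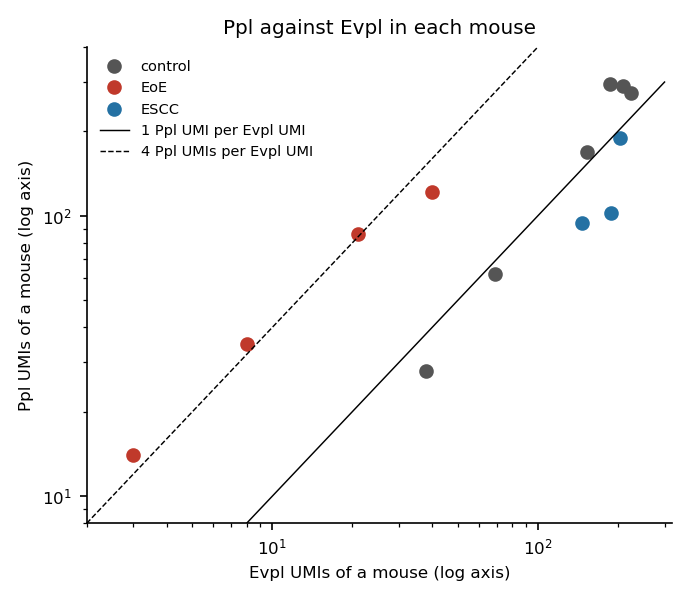
Ppl UMIs (y axis) against Evpl UMIs (x axis) of each mouse on log axes, with lines at 1 and 4 Ppl UMIs per Evpl UMI. The 4 EoE mice lie between 3.05 and 4.67, away from the controls at 0.737 to 1.58.

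In ESCC all 7 tested members were lower than in controls. This comparison asks how the same genes differ after 4NQO, and it shares its controls with the comparison of EoE. The 7 calls as lower compare with 16.8% of the 5866 genes tested, and 0 members were higher, against 17.8% of genes. The median log2 fold change was -2.61 over the 7 members and 0.0065 over all genes, a center that moved to 0.12 with RLE factors and -0.17 with library totals. With RLE factors 1313 genes were called higher and 761 lower, with library totals 759 and 1437, and with TMM factors 1046 and 985, and the 7 members were lower with each. Crct1 and Cysrt1 entered the test through control and EoE mice, since 0 and 1 ESCC mice reached the filter's 35.5 CPM. Without the filter the same 7 members were lower.

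The cysteine-rich proteins and Cnfn had the most negative log2 fold changes of the 7. Crct1 was at 15.3, 6.91 and 18.1 CPM in 8M, 17F and 17M, against 36.0 to 894.3 CPM (median 470.8) in controls (log2 fold change -4.83 ± 0.57, SE, 28.4-fold lower, adjusted p = 5.61e-08, edgeR). Cysrt1 was at 46.8, 24.2 and 29.5 CPM, against 54.0 to 479.4 CPM (median 408.9; -3.21 ± 0.36, adjusted p = 1.73e-08). Cnfn was at 248.3, 51.8 and 125.0 CPM, against 189.1 to 2462 CPM (-3.11 ± 0.54, adjusted p = 3.40e-05). The ESCC and control ranges were apart in Crct1 and Cysrt1, and in Cnfn mouse 8M lay above control mouse 3.

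The scaffold plakins were lower with no overlap between groups. Ppl was at 153.2, 54.1 and 48.5 CPM in 8M, 17F and 17M (log2 fold change -2.61 ± 0.37, SE, 6.10-fold lower, adjusted p = 1.31e-06, edgeR). Evpl was at 163.7, 84.6 and 89.4 CPM (-1.92 ± 0.25, 3.79-fold lower, adjusted p = 4.25e-07). Mouse 8M, with the largest share of Krtdap-side cells of the ESCC mice (16.3%), had the highest level of both.

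The crosslinkers were lower by smaller amounts. Tgm1 was at 44.3, 48.4 and 54.7 CPM, below each control (log2 fold change -1.33 ± 0.22, SE, 2.52-fold lower, adjusted p = 1.59e-05, edgeR). Tgm3 was at 952.9, 388.1 and 451.1 CPM, below the lowest control at 1119 CPM (-1.49 ± 0.35, 2.82-fold lower, adjusted p = 0.00136). The 3 ESCC mice lay close together in Tgm1, at 49.1 ± 5.21 CPM (SD, n = 3), and apart in Tgm3, at 597.4 ± 309.5 CPM.

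Set directly against each other, EoE was higher than ESCC in 6 of the 7 tested members, where 11.7% of genes were higher, and 0 were lower, where 29.9% of genes were. The split of all calls moved with the scaling, from 687 higher and 1753 lower to 524 and 2325 with RLE factors and 891 and 1296 with library totals, and the member counts stayed at 6 and 0. The center of all genes was -0.81, or -1.15 and -0.49 with these scalings. The difference was 5.19 ± 0.62 for Cnfn (log2, SE, adjusted p = 6.68e-08, edgeR), 5.13 ± 0.74 for Crct1, 4.49 ± 0.43 for Ppl, 3.44 ± 0.54 for Cysrt1 and 2.28 ± 0.34 for Evpl. Tgm3 differed by 1.25 ± 0.40 (adjusted p = 0.0129), which was lost without mouse 9 (0.72), 10 (1.18), 17F (0.89) or 17M (0.96), by DESeq2 (0.82) and over all deposited cells (0.38). Tgm1 had a value of -1.04 ± 0.76 (adjusted p = 0.277).

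Because the share of Krtdap-side cells among the cells used moved with both diseases, the members were also compared within Krtdap-side cells. These cells numbered 537 in controls, 87 in EoE and 134 in ESCC. The share was not counted over all deposited cells. Mean Krtdap was 7894 CPM in EoE and 6191 CPM in controls over the cells used. Over all deposited cells mean Krtdap was 3425 and 6168 CPM, the opposite direction. The marker counts that follow are over all cells used, not within Krtdap-side cells. Of 8 superficial markers 3 were higher and 0 lower in EoE, and 0 were higher and 6 lower in ESCC. Of 8 basal markers 0 were higher and 6 lower in EoE, and 4 were higher and 1 lower in ESCC. Of 8 suprabasal markers 1 was higher and 2 were lower in EoE, and 1 and 4 in ESCC. The shares of all genes tested over the same cells were 9.48% higher and 25% lower in EoE, and 17.8% and 16.8% in ESCC. Some superficial markers were under the filter's 35.5 CPM in pooled controls and in pooled ESCC cells, and above it in pooled EoE cells. They may have entered the test through EoE mice. The superficial counts, higher in EoE and lower in ESCC, would then follow in part from that entry.

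Within Krtdap-side cells of EoE mice, 2 members were higher, where 10.3% of 3132 genes tested were, and 2 were lower, where 24.7% of genes were. Cnfn was at 10204, 8876, 13551 and 5082 CPM in mice 9 to 12 and at 599.5 to 4910 CPM (median 3513) in controls (log2 fold change 1.23 ± 0.35, SE, adjusted p = 0.00536, edgeR). Ppl was at 3201, 3754, 2329 and 2579 CPM and at 569.5 to 1601 CPM in controls (1.18 ± 0.30, adjusted p = 0.00195). In both genes each EoE mouse lay above each control. The share of all genes whose groups lie apart in this way was not counted within Krtdap-side cells, so this is a description only.

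Both crosslinkers passed as lower there, 2 of 7 members, a share close to the 24.7% of all genes. Tgm1 had 1, 1, 0 and 0 UMIs in Krtdap-side cells of mice 9 to 12, a pooled level of 0.111 of that in controls (95% counting interval 0.0133 to 0.406, adjusted p = 0.000293, edgeR). Tgm3 was at 3521, 2513, 846.9 and 1214 CPM against 2549 to 4967 CPM (-0.96 ± 0.33, adjusted p = 0.0208), so that mouse 9 lay within the control range. Its difference from the median gene was -0.45, and the call was lost without EoE mouse 11 (adjusted p = 0.0794) or 12 (adjusted p = 0.103). Crct1 (-0.51 ± 0.44), Cysrt1 (-0.52 ± 0.35) and Evpl (-0.42 ± 0.28) did not pass (adjusted p = 0.378, 0.253 and 0.270).

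These EoE counts depended on the controls with few Krtdap-side cells and on the filter. Without control mice 2 and 3 the Cnfn difference was 0.75 (adjusted p = 0.0510, edgeR), Ppl stayed higher, and Crct1 (-0.97) and Cysrt1 (-0.86) passed as lower with both crosslinkers. Without EoE mouse 9 Cnfn was at 0.82 (adjusted p = 0.0858). With no filter on low counts neither Cnfn (0.78, adjusted p = 0.0673, edgeR) nor Ppl (0.76, adjusted p = 0.0634) was called, and 4 members were lower. The median log2 fold change was -0.51 over the members and -0.51 over all genes here, the latter -0.60 with RLE factors and -0.32 with library totals. Over all deposited Krtdap-side cells Cnfn (1.01, adjusted p = 0.0194, edgeR) and Ppl (1.00, adjusted p = 0.00518) were called higher. Tgm1 (-3.13) and Tgm3 (-1.17) were called lower there.

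Within Krtdap-side cells of ESCC mice 5 members were lower, where 10.6% of genes were, and 0 were higher, where 14.3% of genes were. The median was -1.73 over the members and -0.034 over all genes, the latter 0.097 with RLE factors and -0.24 with library totals. The log2 fold change was -3.14 ± 0.48 for Crct1 (SE, adjusted p = 9.66e-07, edgeR), -2.36 ± 0.33 for Cysrt1, -1.75 ± 0.35 for Ppl, -1.73 ± 0.42 for Cnfn and -1.17 ± 0.26 for Evpl (adjusted p = 0.000657). Tgm1 was at 112.2, 190.4 and 233.9 CPM against 149.9 to 308.9 CPM in controls (-0.23 ± 0.27, adjusted p = 0.586), and Tgm3 at 3171, 1843 and 1589 CPM against 2549 to 4967 CPM (-0.52 ± 0.34, adjusted p = 0.277). In Tgm1 mice 17F and 17M lay within the control range and 8M below it, while in Tgm3 8M lay within it and 17F and 17M below each control. Whether crosslinkers and the other members differ in their change was not tested. With library totals 353 genes were called higher and 584 lower, with RLE factors 548 and 258, against 447 and 332, and Tgm3 passed as lower with library totals alone (-0.75, adjusted p = 0.0459).

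**Figure D5:**
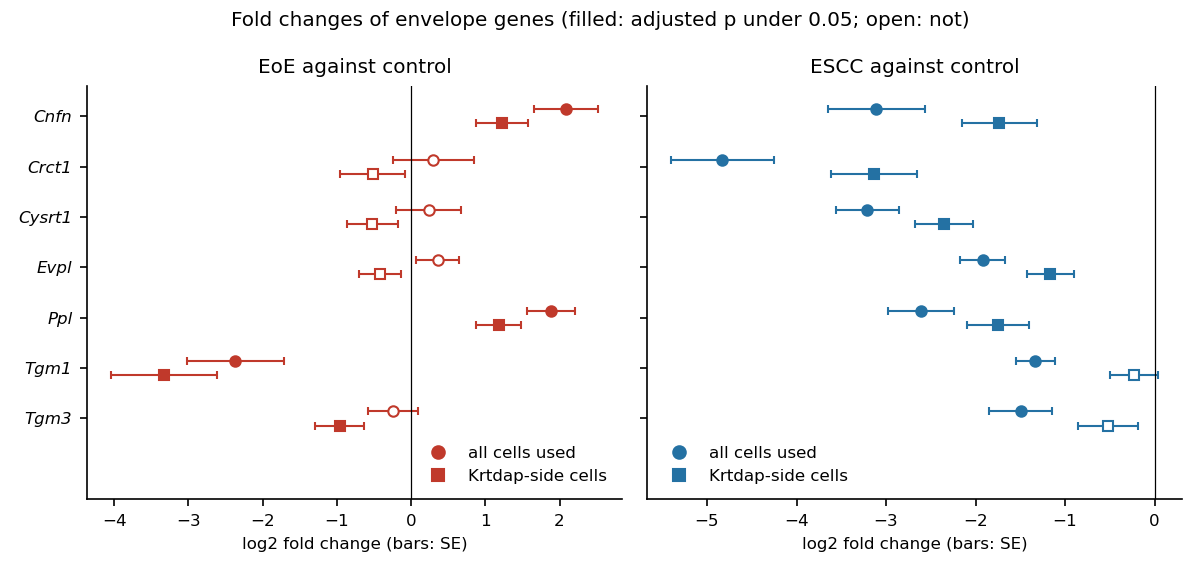
Log2 fold change of each tested member against control (points, with bars of 1 SE), for EoE on the left and ESCC on the right, over all cells used (circles) and within Krtdap-side cells (squares). Filled symbols passed the adjusted p threshold. In ESCC the values of Tgm1 and Tgm3 within Krtdap-side cells are -0.23 and -0.52, and in EoE Cnfn and Ppl stay above 0 in both.

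Onsets in ESCC did not pass the test in any of the 7 members (two-sided exact permutation test, adjusted over the 7). The largest difference was that of Cysrt1, at 46.5% ± 15.4 (SD, n = 3) against 69.6% ± 6.28 in controls (n = 5), a difference of -23.1 points with unadjusted p = 0.0714 and adjusted p = 0.5 by the exact permutation test. Tgm1 was at 63.4% ± 8.19 and Evpl at 52.6% ± 8.67 in ESCC, and Cnfn at 85.4% ± 10.1 and Crct1 at 86.2% ± 8.36. The smallest p possible is 0.0238 with 6 against 3 mice and 0.0357 with 5 against 3. Onsets of EoE mice were not compared because of the few cells.

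Age within controls moved none of the members past the threshold. Old against young controls (3 mice each) gave log2 differences of -0.52 ± 0.58 for Crct1, -0.36 ± 0.54 for Cnfn, -0.24 ± 0.34 for Ppl and 0.13 ± 0.28 for Tgm3 (SE), and the adjusted p of each member was 0.999 or above (edgeR). Of 5149 genes tested 0.0777% were higher and 0.0194% lower in old mice. At an unadjusted p under 0.05 there were 259 genes and 0 members, and DESeq2 also called 0 members. With age class as a term in a fit of control and EoE mice, Cnfn, Ppl and Tgm1 were called as before.

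Other genes of the envelope, from a list of 57 names, moved in both directions. In EoE, of 16 that passed the filter 8 were higher, against 9.48% of all genes tested, and 3 lower, against 25%. The median log2 fold change was 1.65, beside -0.75 over all genes. Among those where the average log2 CPM reached 5, the highest were Rptn (3.70 ± 0.58, SE, adjusted p = 1.05e-05, edgeR), which codes for repetin, the protease inhibitor Csta1 (2.98 ± 0.69) and Sprr1a (2.26 ± 0.48), a small proline-rich crosslinking partner. S100a10 (-4.61 ± 0.46), S100a11 and Anxa1 (-1.70 ± 0.28), which belong to the S100 and annexin families, were lower. S100a11 had 2 UMIs in EoE, a pooled ratio of 0.109 (95% counting interval 0.0131 to 0.397), and its reads may be shared with the copy Gm12854. Some of the 8 genes called higher were under the filter's 35.5 CPM in pooled controls and in pooled ESCC cells. They may have entered the test through EoE mice, and the count of 8 would then follow in part from that entry. Which mice took each gene past the filter was not counted.

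In ESCC 2 of these 16 were higher, against 17.8% of all genes, and 10 lower, against 16.8%, with a median of -2.12 beside 0.0065. Among those past the same limit, Rptn (-5.18 ± 0.87, 4 UMIs in ESCC), Lor (-4.43 ± 0.54), which codes for loricrin, and Sprr3 (-3.56 ± 0.69) were lower, and Csta1 (3.67 ± 0.33) and S100a11 (2.6 ± 0.20) were higher. Within Krtdap-side cells 6 of the 16 were higher and 3 lower in EoE (10.3% and 24.7% of all genes), and 6 were higher and 9 lower in ESCC (14.3% and 10.6%). Over all cells used, some of the 10 genes called lower in ESCC were under the filter's 35.5 CPM in pooled ESCC cells. Among them were Rptn at 0.787 CPM and Lor at 2.17 CPM. Such genes entered the test through control or EoE mice, so the count of 10 and the median follow in part from that entry. Entry was not counted within Krtdap-side cells.

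None of the 8 other transglutaminase family names passed the filter. Of 13 names of other plakins and their partners 9 were tested. In EoE the cytoskeletal linker Macf1 was higher (1.30 ± 0.29, SE), and the hemidesmosomal plakin Dst (-1.52 ± 0.34) and the desmosomal plakophilin Pkp1 (-0.86 ± 0.26) were lower (edgeR). In ESCC Pkp3 was higher (0.71 ± 0.22) and 0 were lower. The medians were -0.03 in EoE and -0.44 in ESCC, beside -0.75 and 0.0065 over all genes, of which 9.48% were higher and 25% lower in EoE and 17.8% and 16.8% in ESCC.

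Of 29 regulators of late differentiation 26 were tested. In EoE 5 were higher, against 9.48% of all genes, and 6 lower, a share close to the 25% of all genes, with a median of -0.51 beside -0.75. Where the average log2 CPM reached 5, Hopx (2.86 ± 0.45, SE), Klf4 (2.12 ± 0.25) and Rora (1.39 ± 0.33) were the highest, and Notch1, Trp63 (-3.04 ± 0.46) and Junb (-2.78 ± 0.32) the lowest (edgeR). Notch1 had 0 UMIs in EoE cells, so that controls were at least 3.69-fold higher than the floor of 3 UMIs over the group. In ESCC 13 were lower, against 16.8% of all genes, with a median of -0.55 over the 26 beside 0.0065. Those with the most negative values past the same limit were Grhl3 (-2.11 ± 0.26), Hopx (-1.53 ± 0.44) and Ovol1 (-1.51 ± 0.30), and Elf5, just under it, had -3.82 ± 0.42. Ovol1 and Elf5 were at 15.5 and 2.95 CPM in pooled ESCC cells, under the filter's 35.5 CPM. They may have entered the test through control or EoE mice, and their calls would then follow in part from that entry.

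RNA of other cell types was scarce after the non-epithelial cells were left out. The 46 measured markers of immune cells, eosinophils and mast cells, fibroblasts, endothelium and muscle together took 0.00869% to 0.0387% of the UMIs of a control mouse, 0.00716% to 0.0334% in EoE and 0.0147% to 0.0305% in ESCC. In EoE 5 of the 46 had a UMI, and each measured immune, eosinophil, mast cell and muscle marker was at 0, Ptprc included. These zeros do not show absence, since the EoE floor was 30.6 CPM and Ptprc was at 7.87 CPM even in pooled ESCC cells. Of 14 eosinophil and mast cell markers listed, 9 were measured. Of these lists only 1 fibroblast and 1 endothelial gene passed the filter, Dcn, lower in ESCC (-1.46 ± 0.47), and Pecam1, higher in EoE (5.84 ± 0.98, from 12 UMIs in EoE and 3 in controls). Pecam1 was at 1.72 CPM in pooled controls and 1.57 CPM in pooled ESCC cells, so it passed the filter through EoE mice alone. Its call as higher follows in part from that entry and is no independent support. The part of such RNA in the members' levels was not tested.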

How the data were processed

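Single cells of peeled esophageal epithelium of 13 mice were measured by inDrop in 22 libraries. The authors deposited UMI counts per gene and cell, with 1500 cells per condition, and the submitters' processing notes name STAR 2.7.3, UMI-tools 1.0.0, featureCounts and GRCm38. The annotation and the use of strand in counting can move reads between overlapping genes. The limits on a cell were 250 to 3500 genes and 100 to 9500 UMIs, after the study. Cells were left out as non-epithelial where they had at least 3 UMIs of non-epithelial markers, and more of these than of basal, suprabasal and superficial markers. No doublet caller was run.

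Groups followed the labels, and the mouse was the replicate. Counts were summed per mouse over its cells (all cells used, or Krtdap-side cells) and tested with edgeR 4.0.16 in R 4.3.3. The quasi-likelihood test used TMM factors, all 3 groups in a fit and Benjamini-Hochberg adjustment over all genes tested, at a threshold of 0.05. Over all cells used, the filter on low counts asked for 35.5 CPM in at least 3 mice. For Krtdap-side cells its cut was set anew from their own depths, which left 3132 genes tested. Old and young controls were compared in a fit of controls alone. Mouse depths were 111043 to 427752 UMIs in controls, 6245 to 41909 in EoE and 1240388 to 2103543 in ESCC. Control and ESCC cells were ranked from Krt5 to Krtdap within each mouse. Onsets were compared by exact permutation tests, in mice with at least 10 UMIs of a gene, and 0.5 was added to each count in log2 ratios.

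Named genes are the 8 members, the axis genes Krt5 and Krtdap, the 2 most similar genes of each member (with at least 300 UMIs in control cells), and for each list the 3 largest called changes in each direction where the average log2 CPM reached 5. Pecam1, at an average log2 CPM of 3.18, Elf5, at 4.97, and the ratio of Ppl to Evpl are outside this rule and were chosen after their values were seen. Members and lists were chosen with earlier results of these data known. The ESCC result of 1 gene of the list of late regulators is not reported here. Alternatives were RLE factors, library totals, DESeq2 1.42.0, no filter on low counts, all deposited cells, non-epithelial calls kept, only the groups compared and each mouse left out. For onsets there were also the 10% and 50% points and the first reach of 50% of the highest eighth. Cells thinned to 500 UMIs and an axis averaged over 15 nearest cells were further alternatives for onsets. Merged barcodes, age class as a term, control mice 2 and 3 left out and the ratio's settings were added after seeing the data. The edgeR fit was tested on simulated data, and the permutation tests of onsets were not.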

Additional observations from a re-analysis of the deposited data

Results flagged for a closer look

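Within a group, 2 of 23 sets of values of the members held a mouse far from the others, where chance gives about 1 in 20. Cysrt1 was at 1441 CPM in EoE mouse 11, from 9 UMIs, with the other 3 EoE mice between 334.0 and 408.1 CPM. The onset of Cysrt1 was 58.6% in control mouse 2, from 33 UMIs, with the other 4 controls between 71.1% and 74.4%.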

How the results depend on the processing

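The 7 members lower in ESCC were called under each alternative run, and without each mouse in turn (7 to 7), as were 5 to 5 within Krtdap-side cells. In EoE, all deposited cells gave 1 member higher (Ppl) and 2 lower (Tgm1 and Tgm3), and leaving out each mouse gave 2 to 2 higher and 0 to 1 lower, with 0 without mouse 10. All deposited cells gave 1 member lower in EoE than in ESCC (Tgm1). Within Krtdap-side EoE cells, no filter on low counts gave 0 higher and 4 lower, only the 2 groups compared gave 1 lower, age class as a term gave 1 lower, and leaving out control mice 2 and 3 gave 1 higher and 4 lower. In the fits of only 2 groups, with and without age class, Tgm1 did not pass the filter there. Leaving out each mouse gave 1 to 2 higher and 1 to 3 lower there, with 1 higher without mouse 9 and 1 lower without mouse 11 or 12.

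Log2 fold changes that turned sign were not called with either sign. In EoE, Crct1 was at -0.031 by DESeq2, -0.050 with no filter, -0.93 over all deposited cells and -0.16 without control mice 2 and 3, Cysrt1 at -0.12 with no filter, -0.84 over all deposited cells and -0.12 without those controls, and Evpl at -0.45 over all deposited cells and -0.030 to 0.49 with each mouse left out. Tgm1 in Krtdap-side ESCC cells ranged from -0.51 to 0.078. For age the ranges with a mouse left out were -0.81 to 0.11 (Cnfn), -1.01 to 0.12 (Crct1), -0.55 to 0.24 (Cysrt1), -0.26 to 0.098 (Evpl), -0.56 to 0.12 (Ppl), -0.43 to 0.0998 (Tgm1) and -0.14 to 0.60 (Tgm3). The causes were not tested, beyond the fewer mice or genes of each setting. EoE depth limits Tgm1 and Ivl most. No paired analysis was possible because the mice of different groups are different animals that share no number across groups.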
